A study of Mus musculus with 3 samples.

Results

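The NRF2 antioxidant pathway was followed through 10 genes of the 16610 listed. They encode the transcription factor NRF2 (Nfe2l2), targets of that factor (Nqo1, Gclm, Gclc, Txnrd1, Srxn1 and Slc7a11) and enzymes that remove peroxides or superoxide (Gpx1, Gpx4 and Sod2). The 10 genes were chosen by symbol for what they encode, with earlier results of these data known. All 10 were listed in every library, and each averaged well above the minimum of 20 normalised counts used for the comparisons. Ribosome-bound RNA was collected from mouse brain by RiboTag, a pull-down of an epitope-tagged ribosomal protein together with the transcripts being translated. The groups were the left hemisphere of animals with middle cerebral artery occlusion (MCAO) for 1 h (the MCAO left hemisphere), the right hemisphere of animals with MCAO (the MCAO right hemisphere, opposite the occlusion) and the right hemisphere of animals without MCAO (the control right hemisphere). The middle section of the hemisphere was used in each group, and animals were killed after 3 days. The labels give no strain, age, sex or genotype and no promoter or driver for the tagged protein, although the series title speaks of astrocytes. Each group was 1 library of RNA pooled from 3 animals with 2 technical replicates, so differences could not be set against a spread between replicates, and no test was run. Whether both hemispheres with MCAO came from the same animals is not given in the labels. No left hemisphere without MCAO was analysed here, so side and occlusion cannot be told apart.

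NRF2 is held at a low level in unstressed cells because KEAP1, an adaptor of a CUL3 ubiquitin ligase, marks it for destruction. Oxidants and electrophiles modify KEAP1, and NRF2 then builds up, pairs with a small MAF protein and binds antioxidant response elements in its target genes. Much of its control therefore lies in protein stability, which transcript levels do not measure. In the brain, astrocytes are known for strong NRF2 activity and for supplying neurons with the precursors of glutathione, the tripeptide thiol that glutathione peroxidases oxidise as they reduce peroxides.

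Sequences upstream of the genes were taken from RefSeq (build GRCm38.p6), where 9 of the 10 genes had a promoter entry, with 14 start sites between them. In the 250 bases before each start, both strands were searched for the core of the antioxidant response element, TGACNNNGC, and for the element bound by NRF2 with a small MAF protein, TGANTCAGC. Some sequences satisfy both motifs. Matches were found upstream of 4 of the 14 starts, in 4 genes, against 10.7% of 32851 upstream windows of all genes. The core was present in 10.2% of all windows and the NRF2-MAF element in 1.02%. The 4 windows with a match follow, 5′ to 3′, with the match in capitals, followed by that of Gpx1, the gene with the largest difference between libraries, in which neither motif was found.
Srxn1 (chr2:152105274-152105523, plus strand): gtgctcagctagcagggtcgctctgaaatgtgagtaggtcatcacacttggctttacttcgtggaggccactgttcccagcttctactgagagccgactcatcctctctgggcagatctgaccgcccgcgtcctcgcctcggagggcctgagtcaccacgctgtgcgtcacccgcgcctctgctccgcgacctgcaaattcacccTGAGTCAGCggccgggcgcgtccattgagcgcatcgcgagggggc
Gclm (chr3:122245307-122245556, plus strand): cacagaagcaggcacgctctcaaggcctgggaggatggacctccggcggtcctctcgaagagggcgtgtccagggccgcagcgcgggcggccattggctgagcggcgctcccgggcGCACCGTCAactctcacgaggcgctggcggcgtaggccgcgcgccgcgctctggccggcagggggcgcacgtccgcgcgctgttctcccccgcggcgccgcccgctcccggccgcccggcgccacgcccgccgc
Txnrd1 (chr10:82858956-82859205, plus strand): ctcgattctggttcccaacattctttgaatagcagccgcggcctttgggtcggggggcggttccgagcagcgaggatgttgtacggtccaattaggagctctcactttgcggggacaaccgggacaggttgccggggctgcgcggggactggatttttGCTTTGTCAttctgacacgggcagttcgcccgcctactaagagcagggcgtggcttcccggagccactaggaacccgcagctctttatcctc
Nfe2l2 (chr2:75704664-75704913, minus strand): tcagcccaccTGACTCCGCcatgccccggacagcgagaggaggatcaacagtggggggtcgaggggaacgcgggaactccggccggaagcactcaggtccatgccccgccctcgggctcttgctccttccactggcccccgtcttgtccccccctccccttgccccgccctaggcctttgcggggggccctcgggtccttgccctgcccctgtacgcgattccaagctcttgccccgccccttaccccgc
Gpx1 (chr9:108338830-108339079, plus strand): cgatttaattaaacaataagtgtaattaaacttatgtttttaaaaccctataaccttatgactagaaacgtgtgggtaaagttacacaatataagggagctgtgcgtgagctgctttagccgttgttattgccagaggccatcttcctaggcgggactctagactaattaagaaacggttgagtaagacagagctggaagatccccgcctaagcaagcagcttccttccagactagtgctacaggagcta
Srxn1 carried the NRF2-MAF element at positions -45 to -37, counted back from the annotated start. The core motif lay on the opposite strand at -134 to -126 in Gclm and at -92 to -84 in Txnrd1. It lay on the gene's own strand at -240 to -232 in Nfe2l2. Txnrd1 had other annotated starts, whose windows held no match. Positions are counted from the start that follows each printed window, which in Gclm and Txnrd1 lies inside the gene span given below. A match is a description of the letters, and nothing was measured on binding. Sequence further upstream than 250 bases was not searched, so a window without a match does not show that a gene lacks these elements.

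The recovered depth was 25930258 reads in the MCAO left hemisphere, 33886604 in the MCAO right hemisphere and 31833456 in the control right hemisphere. The 15 astrocyte markers were all detected, with summed normalised counts of 515552 in the MCAO left hemisphere, 562237 in the MCAO right hemisphere and 539671 in the control right hemisphere. The 12 neuron markers summed to 220495 in the MCAO left hemisphere, 224148 in the MCAO right hemisphere and 251059 in the control right hemisphere. Oligodendrocyte markers (10 genes) gave 164072 in the MCAO left hemisphere, 109400 in the MCAO right hemisphere and 130583 in the control right hemisphere, and endothelial markers (10 genes) gave 1073 in the MCAO left hemisphere, 728 in the MCAO right hemisphere and 931 in the control right hemisphere. The libraries held transcripts of all these cell types. The 12 reactive astrocyte markers summed to 120219 in the MCAO left hemisphere, 22911 in the MCAO right hemisphere and 13596 in the control right hemisphere. Microglia markers summed to 30972 normalised counts in the MCAO left hemisphere, against 10399 in the MCAO right hemisphere and 10268 in the control right hemisphere, and for 9 of the 12 the occluded side was 2-fold or more above both, a size reached by 2.58% of all genes tested. The 12 macrophage markers summed to 13899 in the MCAO left hemisphere, 1177 in the MCAO right hemisphere and 749.6 in the control right hemisphere, and of the 10 past the minimum 8 were 2-fold or more above both, beside the same 2.58%. Among these, Msr1 passed the minimum only through the MCAO left hemisphere, so it had to differ. In the MCAO right hemisphere library, germ cell genes stood apart, a set chosen after the values were seen. Prm2, a sperm protamine gene, had 2.35 normalised counts in the MCAO left hemisphere, 1647 in the MCAO right hemisphere and 5.81 in the control right hemisphere. For the 10 genes, comparisons are therefore given both with that library and against the control right hemisphere alone. In the wider lists, a single fold for a gene is over the control right hemisphere unless another library is named. Such a fold does not show whether the MCAO right hemisphere shared the difference. Fewer cells of a type and less RNA per cell cannot be told apart in such bulk pools.

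The occluded hemisphere was first set against both right hemispheres, to ask whether this defence programme differed there. Differences were modest. Of the 10 genes, Gpx1, Nfe2l2, Txnrd1, Srxn1 and Slc7a11 were higher in the MCAO left hemisphere than in both right hemispheres, by 1.03-fold to 2.21-fold (Slc7a11 lay below the control right hemisphere with scaling to the astrocyte markers), and Gclc, Sod2 and Nqo1 were lower than in both. That is 5 genes above and 3 below, while of all genes tested 34.3% lay above both and 35% below both. None of the 10 was at least 2-fold different from both right hemispheres, a size reached upward by 2.58% and downward by 0.517% of 14906 genes. At 1.5-fold, Gpx1 was higher than in both and none was lower, beside 4.88% and 2.22% of all genes. Against the control right hemisphere alone 1 gene, Gpx1, was at least 2-fold higher and none was 2-fold lower, where 4.12% and 1.25% of all genes were. The median log2 difference of the 10 genes from the control right hemisphere was 0.11 on the log2(normalised count + 5) scale, and that of all genes tested was -0.00. Against the MCAO right hemisphere it was 0.15, beside -0.00 for all genes, and none of the 10 differed 2-fold, where 3.18% of all genes were higher and 4.96% lower. Both comparisons share the MCAO left hemisphere library. The 4.96% lower than in the MCAO right hemisphere includes germ cell genes, such as Prm2, that were high there.

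**Figure D1:**
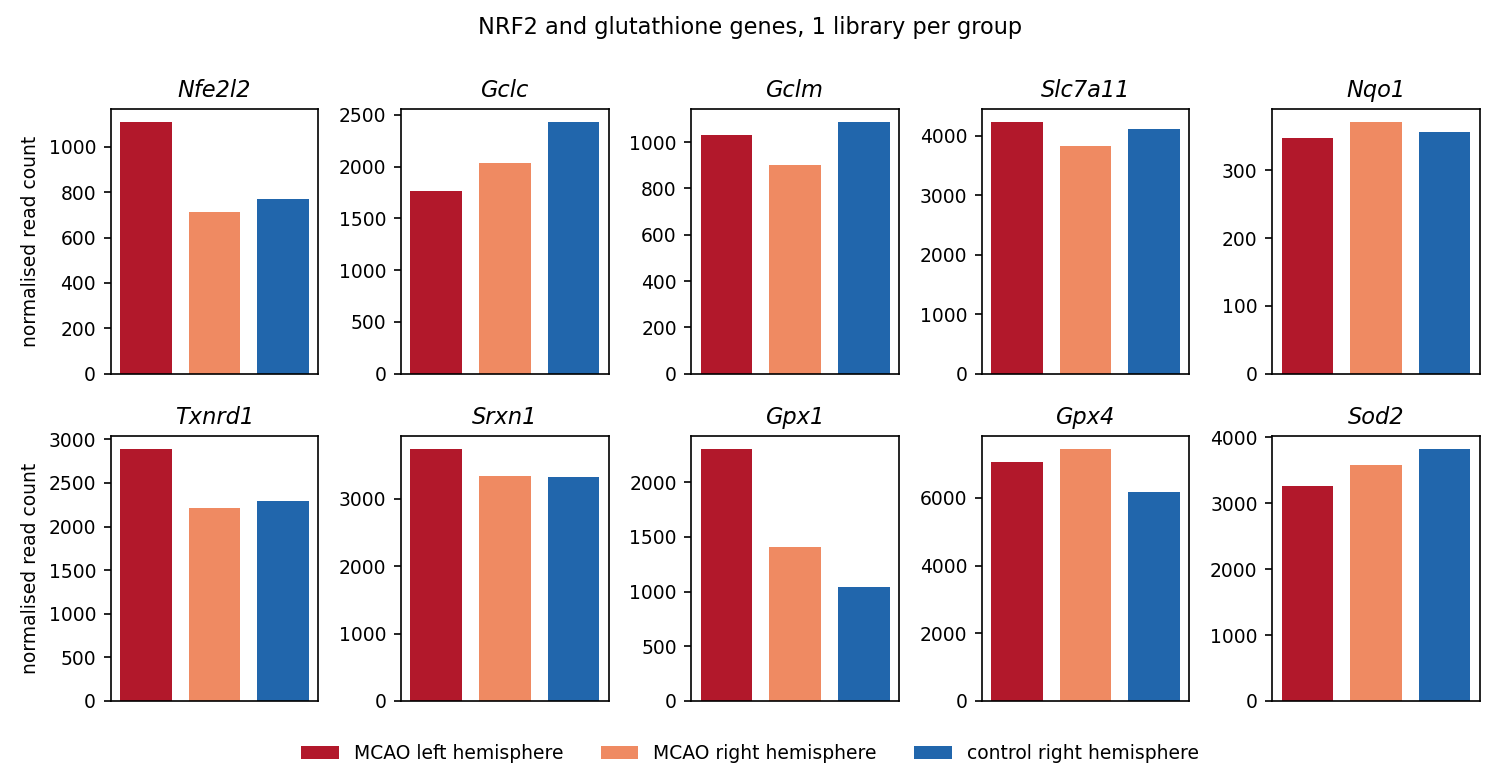
Normalised read counts (vertical axes, each starting at 0 with its own scale) of the 10 genes in the MCAO left hemisphere, the MCAO right hemisphere and the control right hemisphere, with 1 pooled library per bar and no replicate error. Gpx1, Nfe2l2 and Txnrd1 were highest in the MCAO left hemisphere, and Gclc and Sod2 were lowest there.

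Nfe2l2, the NRF2 gene itself (chromosome 2, 75675513 to 75704663), had 1110 normalised counts in the MCAO left hemisphere, 712 in the MCAO right hemisphere and 772 in the control right hemisphere. Its value was high in the occluded hemisphere only, and those of both right hemispheres lay close together. The fold was 1.44 over the control right hemisphere (95% counting interval 1.31 to 1.58) and 1.56 over the MCAO right hemisphere (1.42 to 1.72). Between the right hemispheres it was 0.922 (0.835 to 1.02), an interval that holds 1. These intervals are exact Clopper-Pearson intervals from recovered reads and compare libraries, not conditions, since they cover counting error only. Among all genes tested, the difference of Nfe2l2 from the control right hemisphere stood at percentile 89.3, and that from the MCAO right hemisphere at percentile 94.3.

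Glutathione synthesis begins with glutamate-cysteine ligase, whose catalytic subunit is encoded by Gclc and whose modifier subunit is encoded by Gclm. Gclc (chromosome 9, 77754535 to 77794489) had 1767 normalised counts in the MCAO left hemisphere, 2037 in the MCAO right hemisphere and 2433 in the control right hemisphere. It was the gene furthest below the control right hemisphere among the 10, at 0.726-fold (0.681 to 0.774), which was percentile 8.91 of all genes. Against the MCAO right hemisphere it stood at 0.867-fold (0.812 to 0.926). The MCAO right hemisphere was also below the control right hemisphere, at 0.837-fold (0.791 to 0.886), so the control library had the highest value. Gclm (chromosome 3, 122245487 to 122267215) had 1029 normalised counts in the MCAO left hemisphere, 901 in the MCAO right hemisphere and 1089 in the control right hemisphere. Its order differed from that of its partner, with the lowest value in the MCAO right hemisphere. The fold in the MCAO left hemisphere was 0.945 over the control right hemisphere (0.865 to 1.03) and 1.14 over the MCAO right hemisphere (1.04 to 1.25). A pseudogene, Gm6061, and a non-coding RNA gene, Gm46822, overlap Gclm in the annotation. The labels do not say whether counting used strand, and reads from such an overlap cannot be assigned.

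Slc7a11 (chromosome 3, 50364936 to 50499087) encodes the subunit of the cystine-glutamate exchanger that carries cystine, the precursor of cysteine, into the cell. It had 4236 normalised counts in the MCAO left hemisphere, 3832 in the MCAO right hemisphere and 4118 in the control right hemisphere. All 3 values lay close together. The fold over the control right hemisphere was 1.03 (0.984 to 1.08), and its direction turned to a log2 difference of -0.06 when libraries were scaled to the astrocyte markers. Over the MCAO right hemisphere it was 1.11 (1.06 to 1.16). Slc3a2, which encodes the heavy chain that pairs with this subunit, had 5617, 5218 and 4709 normalised counts in the MCAO left, MCAO right and control right hemispheres, a gene given here for its role and not for its size of difference.

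Nqo1 (chromosome 8, 107388225 to 107403205) encodes a quinone reductase that is widely used as a readout of NRF2 activity. It had 347 normalised counts in the MCAO left hemisphere, 372 in the MCAO right hemisphere and 356 in the control right hemisphere. Its 3 values were the closest of the 10 genes, with the highest 1.07-fold the lowest. The fold over the control right hemisphere was 0.974 (0.832 to 1.14) and that over the MCAO right hemisphere was 0.933 (0.801 to 1.09). It was also the gene with the fewest reads, 295 to 419 per library, and both intervals hold 1. A 2-fold difference lies outside both intervals.

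The thioredoxin branch was represented by Txnrd1 and Srxn1. Txnrd1 (chromosome 10, 82833951 to 82897724), the cytosolic thioredoxin reductase, had 2889 normalised counts in the MCAO left hemisphere, 2214 in the MCAO right hemisphere and 2291 in the control right hemisphere. Like Nfe2l2, it was high in the occluded hemisphere, with both right hemispheres close together. The fold was 1.26 over the control right hemisphere (1.19 to 1.34) and 1.31 over the MCAO right hemisphere (1.23 to 1.38), and between the right hemispheres it was 0.966 (0.913 to 1.02). Eid3 lies within Txnrd1 and was listed at the minimum of 1 in the MCAO left hemisphere, against 194 normalised counts in the MCAO right hemisphere and 1.94 in the control right hemisphere, and its part in the Txnrd1 values was not tested. Srxn1 (chromosome 2, 152105524 to 152111376) encodes sulfiredoxin, which restores over-oxidised peroxiredoxins. It had 3737 normalised counts in the MCAO left hemisphere, 3341 in the MCAO right hemisphere and 3315 in the control right hemisphere. The fold was 1.13 over the control right hemisphere (1.07 to 1.18) and 1.12 over the MCAO right hemisphere (1.07 to 1.17). Both right hemispheres were alike to within counting error, at 1.01-fold (0.962 to 1.06).

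**Figure D2:**
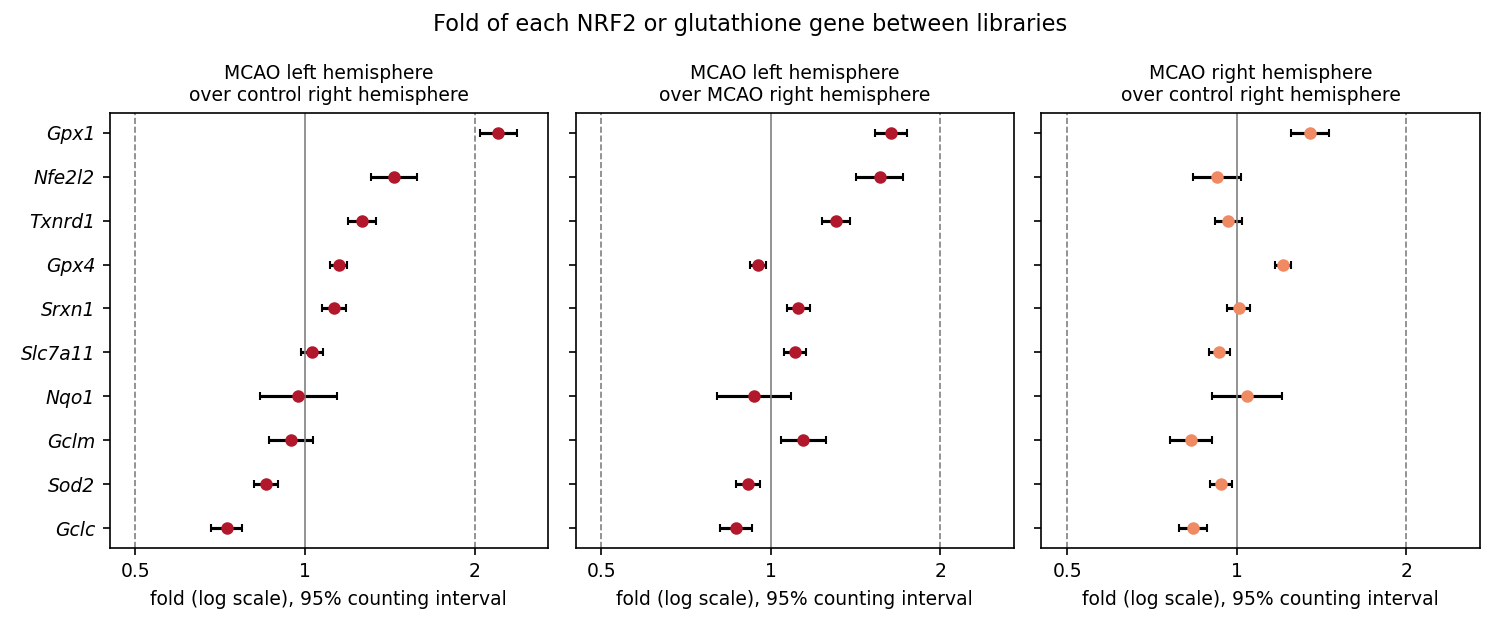
Fold between libraries (horizontal axis, log scale) of each of the 10 genes, with 95% counting intervals as bars, a solid line at equal values and dashed lines at 2-fold higher and lower. Gpx1 alone lies beyond the 2-fold line, at 2.21-fold in the MCAO left hemisphere over the control right hemisphere, and Nqo1 overlaps equality in all 3 panels.

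Glutathione peroxidases differed from each other. Gpx1 (chromosome 9, 108339080 to 108340342), the abundant selenoenzyme that reduces hydrogen peroxide, had 2304 normalised counts in the MCAO left hemisphere, 1411 in the MCAO right hemisphere and 1045 in the control right hemisphere. The libraries were well separated, with the MCAO right hemisphere between the others. The MCAO left hemisphere was 2.21-fold the control right hemisphere (2.05 to 2.38) and 1.63-fold the MCAO right hemisphere (1.53 to 1.75). The MCAO right hemisphere was 1.35-fold the control right hemisphere (1.25 to 1.46). In the comparison with the control right hemisphere Gpx1 stood at percentile 96.5 of all genes tested. The microglia, macrophage and reactive astrocyte markers were higher in the same library, with the sums already given, and their part in the Gpx1 difference was not tested. The 3 genes whose profile over the 3 libraries lay nearest to that of Gpx1, by Euclidean distance of centred log2 values, were Ppp1r14b, D330045A20Rik and BC064078, at distances of 0.0123, 0.0154 and 0.0208, and 24 genes lay within 0.1. Such likeness over 3 libraries is a description.

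Gpx4 (chromosome 10, 80047166 to 80056439) encodes the selenoenzyme that reduces lipid hydroperoxides in membranes and protects cells from ferroptosis. It had 7072 normalised counts in the MCAO left hemisphere, 7449 in the MCAO right hemisphere and 6166 in the control right hemisphere. The occluded hemisphere lay between the others. The highest value was in the library that held the germ cell transcripts, whose part in the Gpx4 value was not tested. The fold was 1.15 over the control right hemisphere (1.11 to 1.19) and 0.949 over the MCAO right hemisphere (0.918 to 0.981). The annotation lists the pseudogenes Gpx4-ps1 and Gpx4-ps2, which can share reads with Gpx4. Sod2 (chromosome 17, 13007839 to 13018119), the manganese superoxide dismutase of mitochondria, had 3266 normalised counts in the MCAO left hemisphere, 3587 in the MCAO right hemisphere and 3825 in the control right hemisphere. It was lowest in the occluded hemisphere, at 0.854-fold the control right hemisphere (0.813 to 0.897) and 0.911-fold the MCAO right hemisphere (0.867 to 0.956).

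The next comparison set the hemisphere opposite the occlusion against the control right hemisphere. None of the 10 genes differed 2-fold there, where 5.17% of all genes were higher and 0.362% lower. Gpx1 and Gpx4 had intervals above 1, at 1.35-fold and 1.21-fold (1.17 to 1.25 for Gpx4). Gclc, Gclm, Slc7a11 and Sod2 had intervals below 1, from 0.828-fold for Gclm to 0.938-fold for Sod2. The intervals of the other 4 genes held 1. The median log2 difference of the 10 genes was -0.07, beside -0.00 for all genes tested. All 10 differences lay between the 5th and 95th percentiles of all genes, which were -0.45 and 1.05. The germ cell genes high in the MCAO right hemisphere library are part of the 5.17% and of these percentiles. The part of those transcripts in the values of the 10 genes was not tested. Scaling to the astrocyte markers moved the median of all genes to -0.14 in this comparison, and the log2 differences of Srxn1 and Nqo1, 0.01 and 0.06 as deposited, became -0.13 and -0.08.

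The genes that pair with NRF2 or restrain it were measured beside it. Keap1 had 3178 normalised counts in the MCAO left hemisphere, 3199 in the MCAO right hemisphere and 3497 in the control right hemisphere, and was 0.909-fold the control value (0.864 to 0.956). The ligase genes Cul3 and Rbx1 were at 0.974-fold and 1.27-fold the control right hemisphere, and Bach1 and Bach2, which encode repressors that compete for the same elements, were at 1.05-fold and 0.865-fold. Among the small MAF genes, Maff had 102 normalised counts in the MCAO left hemisphere, 57.7 in the MCAO right hemisphere and 38.7 in the control right hemisphere. It was 2.64-fold the control value (1.8 to 3.94) and 1.77-fold that of the MCAO right hemisphere (1.27 to 2.49), while Mafk and Mafg were at 1.2-fold and 0.82-fold the control right hemisphere. Nfe2l1, a relative of Nfe2l2, and Sqstm1, which encodes the KEAP1-binding autophagy receptor p62, were at 0.944-fold and 1.06-fold. None of these 10 genes was 2-fold different from both right hemispheres, a size reached upward by 2.58% and downward by 0.517% of all genes.

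Of 22 other genes described as NRF2 targets, all were past the minimum, Osgin1 only through 1 library. In the MCAO left hemisphere 2 reached 2-fold above both right hemispheres, beside the 2.58% of all genes. At any size, 14 of the 22 lay above both right hemispheres and 2 below both, where 34.3% and 35% of all genes did. The list was chosen with earlier results of these data known, so these counts are a description and not a test. Against the control right hemisphere alone 3 were 2-fold higher, where 4.12% of all genes were. Akr1b8, an aldo-keto reductase gene, had 255 normalised counts in the MCAO left hemisphere, 63.9 in the MCAO right hemisphere and 59.1 in the control right hemisphere. It was 4.32-fold the control value (3.24 to 5.84). Hmox1, encoding the heme-degrading enzyme heme oxygenase 1, had 693 normalised counts in the MCAO left hemisphere, 331 in the MCAO right hemisphere and 220 in the control right hemisphere, 3.15-fold the control value (2.7 to 3.69). Ugt1a6a, a glucuronosyltransferase gene of a cluster that shares exons, had 54.1 in the MCAO left hemisphere, 42.6 in the MCAO right hemisphere and 21.3 in the control right hemisphere. The microglia, macrophage and reactive astrocyte markers were higher in the MCAO left hemisphere library, with the sums already given. Their part in the Akr1b8 and Hmox1 values was not tested. Pir and Aldh3a2 were the lowest of the list, at 0.84-fold and 0.884-fold the control right hemisphere. Against the MCAO right hemisphere, Pir was at 0.912-fold and Aldh3a2 at 1.03-fold. The list's median log2 difference from the control right hemisphere was 0.35. Osgin1 was high in the MCAO right hemisphere only, with 18.8 normalised counts in the MCAO left hemisphere, 143 in the MCAO right hemisphere and 12.6 in the control right hemisphere, in the library that held the germ cell transcripts, whose part in the Osgin1 value was not tested.

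**Figure D3:**
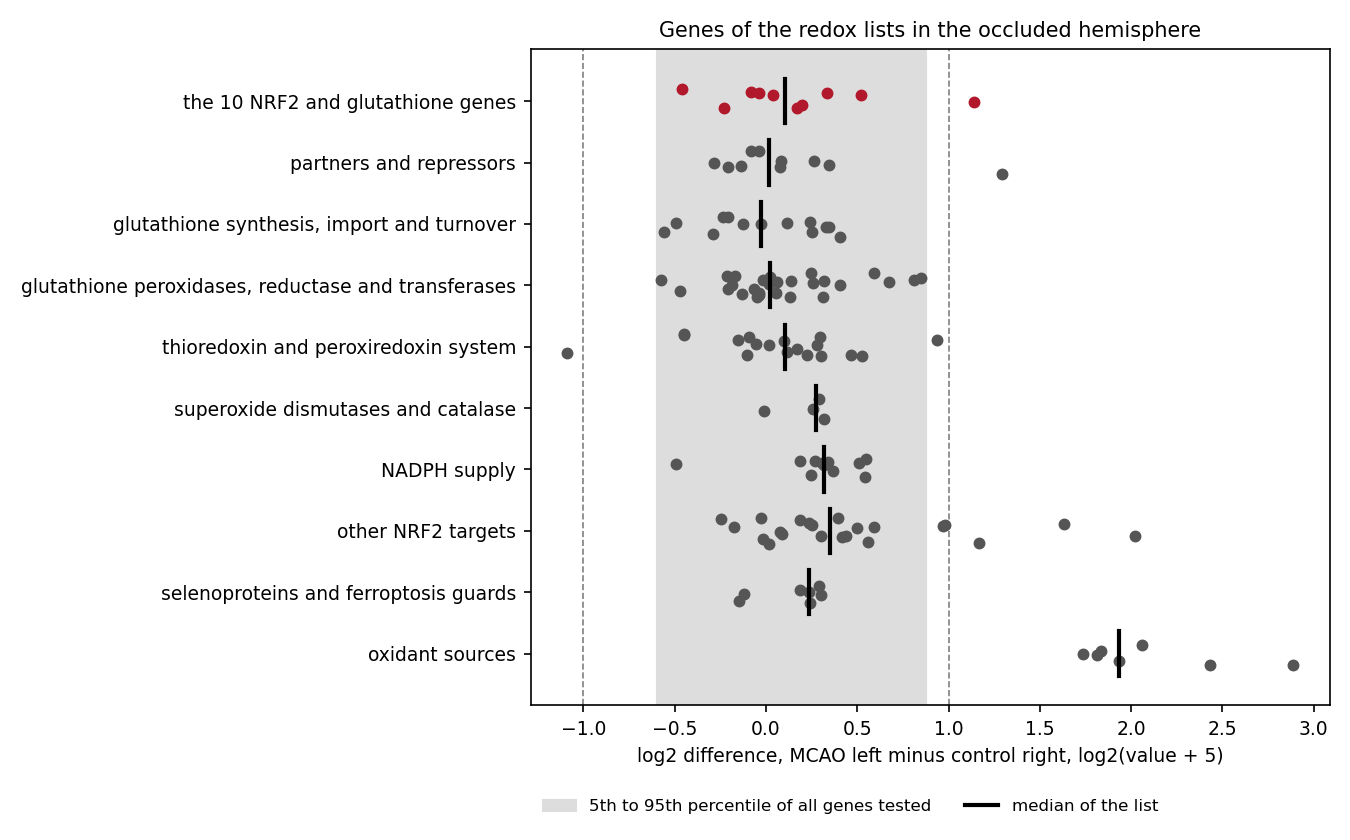
Log2 difference of the MCAO left hemisphere from the control right hemisphere (horizontal axis) for the 10 genes in red and the wider redox lists in grey, 1 point per gene past the minimum of 20, with a bar at each list's median a band from the 5th to the 95th percentile of all genes and dashed lines at 2-fold. Of the 10 genes, 9 lie inside the band and Gpx1 lies above it. The oxidant sources past the minimum lie above it, Ncf4 having passed only through its MCAO left hemisphere value.

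Other genes of glutathione and thioredoxin metabolism were measured too. Of 13 further genes of glutathione synthesis, import and turnover past the minimum, none was 2-fold different from either right hemisphere on the occluded side. The median of their log2 differences against the control was -0.03. Of all genes, 4.12% were 2-fold higher and 1.25% lower than in the control right hemisphere, and 3.18% and 4.96% than in the MCAO right hemisphere. Oplah and Chac2, which act in glutathione breakdown and recycling, were the highest against the control, at 1.32-fold and 1.27-fold. Slc1a1, a glutamate and cysteine transporter gene, and Abcc1, a glutathione conjugate exporter gene, were the lowest, at 0.68-fold and 0.709-fold. The folds of Oplah, Chac2, Slc1a1 and Abcc1 over the MCAO right hemisphere were 1.18, 1.12, 0.908 and 1.12. Of 27 other peroxidases, reductases and transferases of glutathione, none was 2-fold different from the control right hemisphere on the occluded side, with a median log2 difference of 0.02, and Gstm2 was 2-fold lower than in the MCAO right hemisphere, at 0.312-fold (0.207 to 0.459). Against the control, the endoplasmic reticulum peroxidase gene Gpx8 and the microsomal transferase gene Mgst1 were the highest, at 1.83-fold and 1.76-fold. Gstt2 and Gstp2 were the lowest, at 0.664-fold and 0.706-fold. Over the MCAO right hemisphere, Gpx8 was at 1.22-fold, Mgst1 at 1.02-fold and Gstt2 at 0.809-fold. Gstp2 was at 2.01-fold there, a log2 difference of 0.90 on the log2(normalised count + 5) scale used for counting. Gstm2 and Gstp2 differed 2-fold between the right hemispheres, at 2.73-fold (1.95 to 3.88) and 0.352-fold (0.228 to 0.531) in the MCAO right hemisphere, but both have near-identical relatives and their single values are uncertain.

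Among 18 thioredoxin and peroxiredoxin genes, Prdx6 and Txnip stood at the ends. Prdx6, a peroxiredoxin that uses glutathione and is abundant in astrocytes, had 32503 normalised counts in the MCAO left hemisphere, 20859 in the MCAO right hemisphere and 16970 in the control right hemisphere, 1.92-fold the control value (1.88 to 1.95). Txnip, whose product binds and inhibits thioredoxin, had 514 in the MCAO left hemisphere, 619 in the MCAO right hemisphere and 1099 in the control right hemisphere. It was 0.468-fold the control right hemisphere (0.418 to 0.523) and 0.83-fold the MCAO right hemisphere (0.735 to 0.937), so both hemispheres of the MCAO animals were below the control. Txn1, encoding cytosolic thioredoxin, was at 1.44-fold the control right hemisphere and Sesn3, a sestrin gene, at 0.732-fold. Against the MCAO right hemisphere, Txn1 was at 1.23-fold and Sesn3 at 0.965-fold. Genes that supply NADPH, the electron donor of glutathione and thioredoxin reductases, numbered 11. In the MCAO left hemisphere 10 of them lay above both right hemispheres, where 34.3% of all genes did. None differed 2-fold from either right hemisphere, beside the shares of all genes in the preceding paragraph. Against the control their log2 differences had a median of 0.32, and Mthfd2 and Taldo1 were the highest, at 1.47-fold and 1.46-fold, with Me3 and Tkt the lowest at 0.711-fold and 1.14-fold. Sod1, Sod3 and Ccs were at 1.25-fold, 1.23-fold and 1.2-fold the control right hemisphere and Cat at 0.992-fold. The folds of Sod1, Sod3, Ccs and Cat over the MCAO right hemisphere were 0.952, 1.24, 1.11 and 0.997. Of 16 selenoprotein and ferroptosis genes listed, 7 were found by symbol and none of these differed 2-fold from either right hemisphere, beside the same shares. Symbols were matched as written, so a gene present under another name would be missed. Against the control, Aifm2 and Sepp1 were the highest, at 1.23-fold and 1.22-fold, and Sephs2 and Dhodh the lowest, at 0.902-fold and 0.919-fold. The folds of Aifm2, Sepp1, Sephs2 and Dhodh over the MCAO right hemisphere were 1.37, 0.94, 0.875 and 1.01.

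Genes whose products make oxidants were set beside these defences. Of 10 listed, 8 were in the table and 7 passed the minimum. These 7 reached 2-fold above both right hemispheres in the MCAO left hemisphere, where 2.58% of all genes did. The list was chosen with earlier results of these data known, so this count is a description and not a test. Ncf4, another oxidase subunit gene, passed the minimum only through its value in the MCAO left hemisphere, so it had to differ, with 89.4 normalised counts there, 3.55 in the MCAO right hemisphere and 7.75 in the control right hemisphere. Cybb, the catalytic subunit of the phagocyte NADPH oxidase, had 305 normalised counts in the MCAO left hemisphere, 34.6 in the MCAO right hemisphere and 52.3 in the control right hemisphere, 5.83-fold the control value (4.33 to 7.96). Its partner genes Ncf1 and Cyba were at 4.28-fold and 3.9-fold the control right hemisphere, and Rac2, a GTPase of blood-lineage cells, at 3.67-fold, while Xdh, encoding xanthine dehydrogenase, was at 3.55-fold. The microglia and macrophage markers that are higher in the same library have the sums already given, and their part in these values was not tested.

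**Figure D4:**
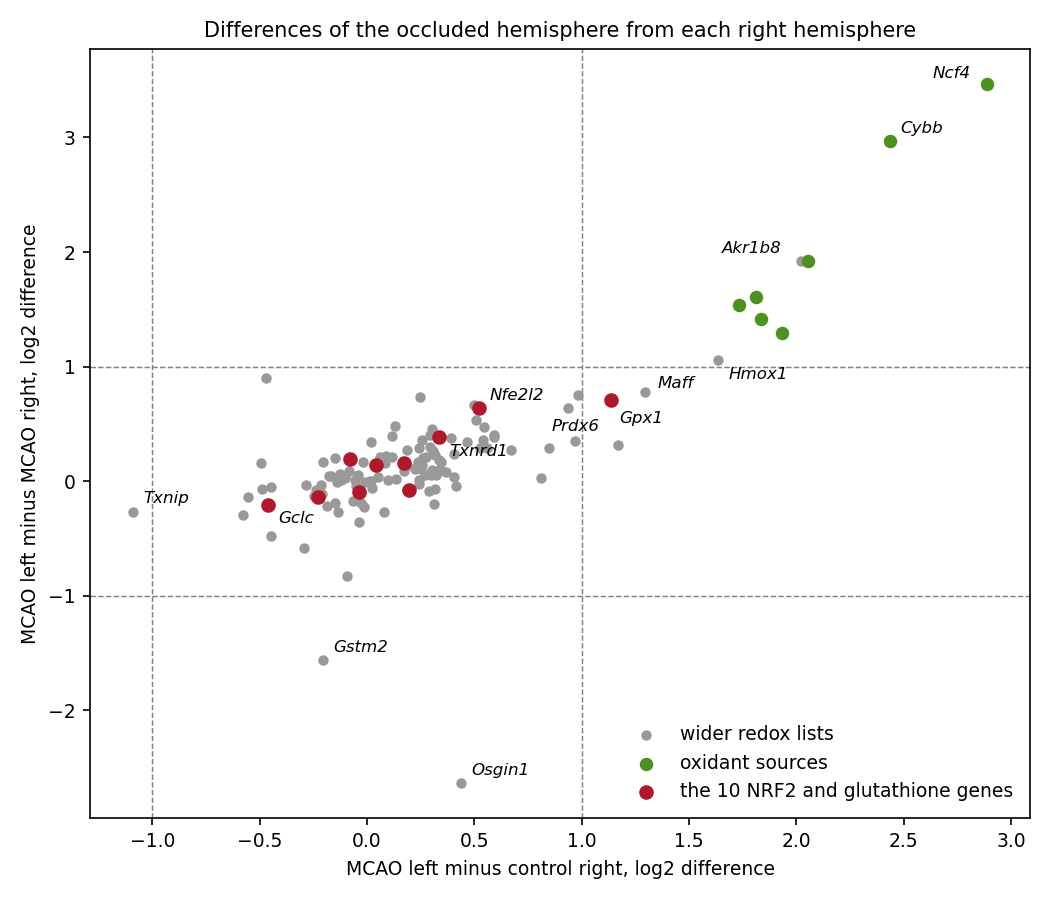
Log2 difference of the MCAO left hemisphere from the control right hemisphere (horizontal axis) and from the MCAO right hemisphere (vertical axis), on the log2(normalised count + 5) scale, for the 10 genes in red, the oxidant sources in green and the other redox genes in grey, with dashed lines at 2-fold. The MCAO left hemisphere library is shared by both axes, none of the 10 genes lies beyond 2-fold on both, and Akr1b8, Hmox1 and the oxidant sources do.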

How the data were processed

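Ribosome-bound RNA from 3 mouse brain pools was measured, with 1 library per group. The authors deposited a signal per gene, a normalised read count scaled library by library, with values below 1 listed as 1. Per the submitters' processing notes, CASAVA 1.8, HISAT2 2.0.11, Partek 6.6, R 3.3.1, DESeq2 and genome build mm10 were used, with no role given for each. Each column name equals the description of 1 sample.

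The value of 1 read was found from the low values (1.18 normalised counts in the MCAO left hemisphere, 0.887 in the MCAO right hemisphere and 0.969 in the control right hemisphere), and 99.9% of values above 1 were whole within 0.1 read. Genes averaging 20 or more (14906) were compared as log2(value + 5) and counted at 2-fold. Folds are ratios of normalised counts without the pseudocount. Their exact Clopper-Pearson 95% intervals cover counting error only, since each group had 1 library. They treat each read as a separate molecule, so PCR copies would make them too narrow. With 1 library per group no count test could be run. Levels were not compared between genes, because no transcript lengths were used. The 10 genes and the lists were chosen with earlier results of these data known. Named genes were these 10, all partners and repressors of NRF2, and of each wider list the genes 2-fold different from both right hemispheres or between the right hemispheres and the 2 highest and 2 lowest against the control. Slc3a2 was named outside this rule for its role, and Ugt1a6a, Msr1, Eid3 and Prm2 after their values were seen. Of the oxidant sources, 1 gene that the rule names is not reported here. RefSeq held 15912 of the 16610 symbols. Counting was tested on simulated data. Python 3.11.15, numpy 2.4.6, pandas 2.3.3, scipy 1.17.1 and matplotlib 3.10.9 were used. Alternatives changed the pseudocount (1 and 20), the minimum (none and 100), the scaling (library total, trimmed mean of M values, astrocyte markers) and the threshold (1.5-fold and 3-fold).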

Additional observations from a re-analysis of the deposited data

How the results depend on the processing

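The counts of the 10 genes at least 2-fold different were the same with a pseudocount of 1 or 20, with no minimum or a minimum of 100, and with each of 3 other scalings. They moved with the threshold. At 1.5-fold, 2 genes (Gpx1 and Nfe2l2) instead of 0 differed between the MCAO left and the MCAO right hemisphere, and 1 gene (Gpx1) instead of 0 differed from both right hemispheres. At 3-fold, 0 genes instead of 1 differed between the MCAO left and the control right hemisphere. Without the MCAO right hemisphere library, an alternative chosen after seeing the data, the count against both right hemispheres became 1 (Gpx1). Of 210 log2 differences of the 10 genes under pseudocount, minimum and scaling alternatives, 14 left their counting interval. All 14 arose with scaling to the astrocyte markers, where 3 changed sign (Slc7a11 in the MCAO left against the control right hemisphere, and Nqo1 and Srxn1 between the right hemispheres), none of them past 2-fold. That scaling moved values by at most 0.14 on the log2 scale. The minimum of 100 lowered the count of oxidant sources 2-fold above both right hemispheres to 4, since fewer genes were tested. At 3-fold it was 4, and with no minimum it was 8, instead of 7. The count of other NRF2 targets was 2, against 3 at 1.5-fold, 1 at 3-fold and 3 without the MCAO right hemisphere library.

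Over all genes, a minimum of 100 gave 283 higher and 95 lower genes in the MCAO left against the control right hemisphere, instead of 614 and 187, and 199 and 30 against both right hemispheres, instead of 384 and 77. It gave 231 and 178 in the MCAO left against the MCAO right hemisphere, instead of 474 and 740, and 188 and 16 between the right hemispheres, instead of 771 and 54. Lower genes against both right hemispheres became 132 with a pseudocount of 1 and 28 with 20. Lower genes in the MCAO left against the control right hemisphere became 105 with a pseudocount of 20 and 295 with no minimum. Between the right hemispheres lower genes became 27 with a pseudocount of 20, 112 with no minimum and 93 with scaling to the astrocyte markers. No minimum gave 1391 instead of 740 lower genes in the MCAO left against the MCAO right hemisphere, and 1415 instead of 771 higher genes between the right hemispheres. At 1.5-fold, 727 genes were higher and 331 lower than both right hemispheres, and at 3-fold 200 and 11. The trimmed mean of M values was computed from its published definition and not with edgeR. Leaving out a replicate was not run, since each group had 1 library. No paired analysis was possible because each group had 1 library and no replicate numbers. Depth limited Nqo1 most, at 295 reads in the MCAO left hemisphere.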
